A study of Mus musculus with 4 samples.

Results

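The regions described here are open chromatin regions that lie in the first introns of protein-coding genes in mouse incisor dental mesenchyme. A region was counted when its midpoint lay in the first intron of a protein-coding transcript, more than 1 kb from every protein-coding transcription start site (TSS) and in no exon of any annotated transcript. By that rule 14826 of 121574 listed regions (12.2%) were first intron regions. They were set against 27211 later intron regions, whose midpoints lay in an intron of a protein-coding transcript but in no first intron of any transcript. The rule used position alone and no read count.

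The assay was ATAC-seq, which sequences the DNA that an added transposase can reach, and so marks open chromatin. The series holds 1 group: untreated wild-type C57BL/6 mice, 4 weeks old, of which the incisor's dental mesenchyme was taken. That tissue holds the progenitors of the dentin-forming odontoblasts of a tooth that grows throughout life. The 4 samples are lanes of 1 library and share 1 value column, so there is no replicate and no contrast of conditions. How many mice gave cells is not stated in the labels. Intervals are 95% intervals that cover counting error only, exact ones save where distances were weighted.

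The first intron follows the first exon and is usually the longest intron of a gene. It is transcribed soon after initiation, its start often carries promoter-like chromatin, and enhancers and alternative promoters are known in the first introns of many genes, collagen genes among them. CTCF is a zinc finger protein that holds cohesin at chromatin loop ends and binds a long, well-defined motif. SP and KLF factors bind GC-rich sites of promoters, and homeodomain factors such as Msx, Dlx, Alx and Prrx proteins pattern the jaw and teeth.

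The sequences shown are from GRCm38, the assembly also called mm10, and are those on which the results on motifs and on the regions with most reads turn. The first set is the CTCF motif (in capitals) with 14 bases on each side, written on the strand of the motif, in the 6 first intron regions with most reads among those that hold it in their central 200 bases. They lie in genes as different as Col1a1, which encodes the main chain of dentin and bone collagen, and Opcml, which encodes a neuronal cell adhesion molecule.

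Pde10a, chr17:8597945-8597984, minus strand: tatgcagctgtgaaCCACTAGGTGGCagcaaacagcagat
Col1a1, chr11:94937162-94937201, minus strand: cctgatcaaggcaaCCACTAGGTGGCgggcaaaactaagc
Nhsl1, chr10:18453562-18453601, plus strand: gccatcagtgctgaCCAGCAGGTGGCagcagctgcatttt
Mmp17, chr5:129586201-129586240, minus strand: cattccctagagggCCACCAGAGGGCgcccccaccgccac
BC030870, chr8:65110584-65110623, minus strand: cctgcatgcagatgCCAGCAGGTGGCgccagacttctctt
Opcml, chr9:28261557-28261596, plus strand: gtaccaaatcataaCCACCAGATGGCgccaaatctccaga

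The reads of these regions were 68 in Pde10a, 42 in Col1a1, 39 in Nhsl1, 37 in Mmp17, 36 in BC030870 and 35 in Opcml. Each is several times the median of 6 reads in first intron regions, as follows from their choice by reads. All first intron regions with the motif had a median of 11 reads. The Col1a1 region lay only 1.003 kb from the TSS, just inside the distance rule, and 0.459 kb from the TSS of another annotated transcript. The Opcml region lay 471 kb into an intron of 613 kb.

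The next set shows the base composition and motifs of regions with many reads, each as 300 bases around the midpoint of the region, with the named motif in capitals where it lies in the central 200 bases. Mllt10 holds the region with most reads among those with GGGGCGG, the core bound by SP and KLF factors, Pde4d the one with TAATTA, the homeodomain core, and Pam the one with TGTTTAC, the core bound by forkhead (FOX) factors. Maml3 holds the region with the most reads after that of Peg3 among those that neither align to the mitochondrial genome nor lie within 1 kb of any annotated TSS. The Pde4d region lies 324 kb into the gene but 1.29 kb from a protein-coding TSS.

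Mllt10, chr2:18056720-18057019, plus strand: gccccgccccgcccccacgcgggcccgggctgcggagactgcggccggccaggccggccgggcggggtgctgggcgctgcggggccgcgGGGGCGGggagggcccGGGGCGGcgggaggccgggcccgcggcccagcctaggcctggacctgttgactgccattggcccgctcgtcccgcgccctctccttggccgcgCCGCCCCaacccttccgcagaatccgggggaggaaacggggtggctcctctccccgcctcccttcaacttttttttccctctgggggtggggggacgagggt
Pde4d, chr13:109440743-109441042, plus strand: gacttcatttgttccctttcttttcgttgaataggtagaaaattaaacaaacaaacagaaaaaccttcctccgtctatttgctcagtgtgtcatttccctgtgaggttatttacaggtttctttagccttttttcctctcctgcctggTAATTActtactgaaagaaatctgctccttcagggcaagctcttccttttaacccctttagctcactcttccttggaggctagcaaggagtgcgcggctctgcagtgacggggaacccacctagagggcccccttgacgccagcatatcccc
Pam, chr1:98073519-98073818, plus strand: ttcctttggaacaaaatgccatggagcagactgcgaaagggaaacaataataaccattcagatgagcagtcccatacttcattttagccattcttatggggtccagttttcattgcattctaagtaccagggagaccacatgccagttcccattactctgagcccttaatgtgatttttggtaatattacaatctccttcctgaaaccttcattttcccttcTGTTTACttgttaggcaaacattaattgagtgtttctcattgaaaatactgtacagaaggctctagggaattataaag
Maml3, chr3:52102402-52102701, plus strand: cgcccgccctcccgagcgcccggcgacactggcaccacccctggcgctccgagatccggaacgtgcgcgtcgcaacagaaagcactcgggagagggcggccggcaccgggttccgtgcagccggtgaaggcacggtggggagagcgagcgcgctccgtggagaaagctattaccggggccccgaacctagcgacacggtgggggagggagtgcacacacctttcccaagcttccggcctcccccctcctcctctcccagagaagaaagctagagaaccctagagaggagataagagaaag

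The last set belongs to the regions with the very highest counts. The Peg3 stretch is the 300 bases of its region with most matches to GCCATNTT, the core bound by YY1, in capitals on the opposite strand as AANATGGC, a motif chosen for that region after its values were seen. Esrrg is shown because its region, of 150 bases, is 1 of 5 that align to the mitochondrial genome.

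Peg3, chr7:6727672-6727971, plus strand: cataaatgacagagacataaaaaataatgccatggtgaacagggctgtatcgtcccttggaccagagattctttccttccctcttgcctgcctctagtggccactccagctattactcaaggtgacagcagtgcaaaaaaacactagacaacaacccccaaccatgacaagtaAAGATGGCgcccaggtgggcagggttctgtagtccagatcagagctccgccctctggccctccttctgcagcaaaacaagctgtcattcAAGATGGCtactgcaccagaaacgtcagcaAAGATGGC
Esrrg, chr1:187712572-187712871, plus strand: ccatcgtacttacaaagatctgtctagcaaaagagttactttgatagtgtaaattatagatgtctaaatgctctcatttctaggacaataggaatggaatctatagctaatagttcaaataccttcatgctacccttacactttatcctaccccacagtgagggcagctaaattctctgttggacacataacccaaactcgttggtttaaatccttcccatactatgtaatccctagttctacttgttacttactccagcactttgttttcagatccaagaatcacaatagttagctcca

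Open regions were denser in first introns than in later introns, at 1.19 times the regions for each Mb of intron. First introns held 53.2 regions per Mb (52.4 to 54.1) over 279 Mb, and later introns 44.9 per Mb (44.3 to 45.4) over 607 Mb. The exact interval of the ratio was 1.16 to 1.21. In reads the ratio was also 1.19 (1.18 to 1.20), from 576 and 483 reads per Mb. Reads of the same region are not independent, so the interval by reads is too narrow. For scale, intergenic sequence held 29.8 regions per Mb and the zones within 1 kb of a protein-coding TSS held 454 per Mb.

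Taken over all distances from a TSS, the difference was in how many regions there were, not in how many reads each held. The median was 6 reads in both sets, with quartiles of 3 and 12 reads in both. At least 10 reads were counted in 33.5% (32.8 to 34.3) of first intron regions and in 33.6% (33.0 to 34.1) of later intron regions. Within classes of distance to the nearest protein-coding TSS that share was mostly lower in first introns. It was 32.6% against 35.3% from 5 to 10 kb and 30.9% against 34.3% from 20 to 50 kb. Only from 2 to 5 kb was it higher, at 42.3% against 41.6%. A further 875 first intron regions (5.90%) were listed with 0 reads in this library, against 5.85% in later introns. At 6 reads the exact interval of a single region runs from 2.20 to 13.1 reads, so single regions near the median cannot be ranked. Just outside the distance rule, 236 first intron regions between 0.9 and 1 kb from a TSS had a median of 7 reads, and just inside it 216 regions between 1 and 1.1 kb had a median of 5.5.

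The width, base composition and repeat content of the regions were also close in both sets. The median width was 243 bases in first introns and 247 in later introns. The median GC content was 49.2% against 48.3%, above the 45% of flanking windows 2 kb away in both. The median was 1.29 CpG sites per 100 bases against 1.20, where promoter regions had 6.75. Repeats covered 50% or more of the bases in 2.02% of first intron regions, against 16.8% of their flanks.

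The tissue label was checked on promoter reads of marker genes. Of 8 dental mesenchyme markers, 7 had a promoter region, with a median of 136 promoter reads over the list and 0 for Barx1. None of 6 leukocyte markers had one, and all 6 were at 0. Of 5 endothelial markers 4 had one, with a median of 13 reads, Emcn and Pecam1 being at 0. Of 6 dental epithelium markers 5 had one, with a median of 23, a highest of 112 and Amelx at 0. For Schwann cell and glial markers it was 1 of 4 (highest 96, with S100b and Sox10 at 0), and for skeletal muscle 1 of 4 (highest 4). Cells were taken in bulk, so more open chromatin per cell and more cells of a type cannot be told apart in any value given here.

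First introns lie closer to TSSs, so the sets were next compared at equal distance from the nearest protein-coding TSS. Of first intron territory 36.1% lay within 10 kb of one, against 12.7% of later intron territory, and the median region lay 16.7 kb away in first introns and 47.3 kb in later ones. Weighted to equal distances, the ratio was 1.21 (1.18 to 1.23). Among regions of at least 10 reads it was 1.14 (1.10 to 1.19) at equal distance, against 1.18 (1.14 to 1.23) without weighting.

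The lead held up to 50 kb from a TSS and not beyond. From 1 to 2 kb, first introns held 69.4 regions per Mb against 50.7 in later introns, a ratio of 1.37 (1.21 to 1.55). From 2 to 5 kb it was 39.3 against 33.1, a ratio of 1.19 (1.09 to 1.29). Density in both kinds of intron and in intergenic sequence (43.7 from 1 to 2 kb and 31.8 from 2 to 5 kb) was thus lower between 2 and 5 kb than on either side. From 5 to 10 kb the ratio was 1.43 (1.34 to 1.52), the highest of the 7 distance classes, from 56.8 and 39.8 regions per Mb. From 10 to 20 kb it was 1.38 (1.32 to 1.45), and from 20 to 50 kb it was 1.23 (1.19 to 1.28).

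Between 50 and 100 kb the ratio was 0.968, with an interval (0.919 to 1.02) that includes 1. Beyond 100 kb first introns were sparser than later introns, 31.1 against 38.6 regions per Mb, a ratio of 0.806 (0.754 to 0.861). Against intergenic sequence first introns stayed denser at every distance, with ratios between 1.23 (2 to 5 kb) and 1.59 (1 to 2 kb, and also 1.59 beyond 100 kb).

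**Figure D1:**
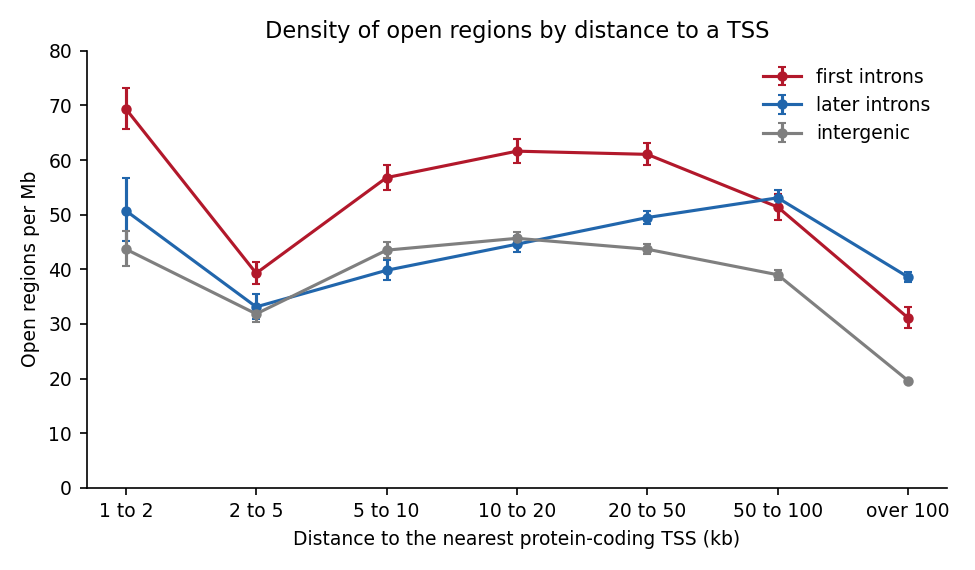
Open regions per Mb (y axis) by distance to the nearest protein-coding TSS in kb (x axis) for first introns, later introns and intergenic sequence; bars are exact 95% Poisson intervals. First introns lie above later introns up to 50 kb and below them beyond 100 kb, where they hold 31.1 and 38.6 regions per Mb.

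Density was highest in intron 1 and lower at each of the next 3 introns. It was 53.2 regions per Mb in intron 1, 49.8 (48.6 to 50.9) in intron 2, 45.9 (44.5 to 47.4) in intron 3 and 44.4 (42.7 to 46.1) in intron 4. Introns 4 to 14 then stayed between 41.9 and 44.5 per Mb with overlapping intervals, and introns from 15 on held 39.5 (38.2 to 40.9). Intron 2 thus lay nearer to intron 1 than to the introns from 4 on.

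The lead was also seen within most classes of intron length. Introns of 30 to 100 kb, the class with most first intron territory (117 Mb), held 64.2 regions per Mb in first introns and 50.7 in later ones, a ratio of 1.27 (1.23 to 1.31). Introns of 10 to 30 kb had a ratio of 1.17 (1.12 to 1.21) and those of 100 to 300 kb 1.18 (1.13 to 1.24). For introns of 3 to 10 kb (0.968, 0.915 to 1.02) and over 300 kb (1.0, 0.909 to 1.10) the interval included 1. Overlapping introns of several transcripts count more than once in these classes.

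Within first introns of at least 20 kb, divided into 10 equal parts from the 5′ end, the density was 53.9 regions per Mb in the first part, 46.0 in the next and 57.9 in the last. In later introns it was 42.2 in the first part and 49 in the last. The regions were therefore spread along the whole intron, and the end nearest the start of the gene was not the densest. Parts within 1 kb of a TSS are not in these values.

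The 3 first intron regions with most reads all aligned to the mitochondrial genome. They lay in Zfp804b (chr5:7276795-7277297, 3824 reads, 3704 to 3947), Wars2 (chr3:99199210-99199394, 1167 reads, 1101 to 1236) and Esrrg (chr1:187712647-187712796, 733 reads, 681 to 788). Their identity to the mitochondrial genome was 85.2%, 78.0% and 76.0%. In all, 5 first intron regions aligned to it and held 5765 reads, 3.59% of all first intron reads. Later introns held 5 such regions with 10348 reads. How many of those reads came from mitochondrial DNA was not tested.

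The next region lay in Peg3, an imprinted gene for a zinc finger protein that is expressed from the paternal copy. It spans chr7:6727444-6728969, has its midpoint 2.21 kb from the TSS and held 553 reads (508 to 601). It held 8 matches to the YY1 core GCCATNTT, all on the strand opposite to the one printed, 3 of them in the stretch shown. That was the highest number of any first intron region, the next highest being 4, and 538 regions (3.63%) held at least 1. Matches in a wide region are more likely than in a narrow one, and this region is 1526 bases wide. Another of the top 10, with 294 reads, lay in Impact, also an imprinted gene.

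The other regions of the top 10 were mostly GC-rich sequence close to a TSS. Slc27a1, a fatty acid transporter gene, held 434 reads (394 to 477) at 61.3% GC. Mllt10, a chromatin factor gene, held 428 (388 to 471) at 71.0% GC, and 3 GGGGCGG matches are capitalised in the stretch shown. Maml3, which encodes a coactivator of Notch, held 317 (283 to 354) at 65.1% GC, and Marcks, an actin-binding substrate of protein kinase C, held 250 (220 to 283) at 70.4% GC. Ism1, which encodes the secreted protein isthmin, was the exception: its region of 310 reads (276 to 347) lay 44.5 kb from any TSS at 48.7% GC. The Slc27a1, Mllt10 and Impact regions lay within 1 kb of the TSS of another annotated transcript, 0.052, 0.257 and 0.457 kb away.

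In all, 65 first intron regions held at least 100 reads. Of these, 42 neither aligned to the mitochondrial genome nor lay within 1 kb of any annotated TSS, noncoding and fragmentary transcripts included. Among all first intron regions 1122 (7.57%) lay within 1 kb of such a TSS, close to the 7.70% in later introns. Among the regions clear of both, Dcbld1 held one of 201 reads (174 to 231), 41.1 kb from any annotated TSS, and Arhgap31, a GTPase-activating protein gene, one of 139 (117 to 164), 31.8 kb from any annotated TSS.

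Over genes, 4187 of 16106 with first intron territory held at least 1 first intron region, which is 26.0% of them. That share followed the length of the first intron: 2.46% of genes with under 1 kb of territory, 17.9% with 3 to 10 kb, 64.8% (62.5 to 66.9) with 20 to 50 kb and 94.3% (89.5 to 97.4) with over 200 kb. The regions were spread over many genes, but unevenly. Just 1 region was held by 1750 genes, 2 to 4 by 1516, 5 to 9 by 617 and 10 or more by 304. Those 304 genes held 5279 of 15054 regions, when a region is counted once for each gene that holds it. Only 186 regions (1.25%) lay in the first introns of more than 1 gene. A total of 3626 regions also lay in a later intron of another transcript.

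The genes with most regions had very long first introns. Gm20388 had 347, but its first intron of 4384 kb belongs to a transcript that the annotation marks as readthrough across many genes. Next came Rbfox1, a neuronal splicing factor gene, with 62 regions in 598 kb, and Maml3 with 50 in 315 kb. Opcml (48), Asic2 (47), Cmss1 (46), Maml2 (44), Pde4d (41), Ext1 (40) and Arhgap26 (39) completed the 10. Ext1 encodes an enzyme that builds heparan sulfate chains, and had 40 regions in 237 kb of first intron against 1 in 37.6 kb of later introns.

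Among genes with at least 10 kb of first intron territory and at least 5 regions, the 5 densest were all under 20 kb. Fez1 held 8 regions in 14.7 kb, Lsp1 9 in 18.3 kb, Traf3ip2 5 in 10.4 kb, Ccsap 6 in 12.7 kb and Wfdc1 5 in 11.7 kb. Fez1, an axon transport adaptor gene, thus had 54.6 regions per 100 kb of first intron and 3.65 in later introns. The Lsp1 region with most reads (34 of 106) lay 0.011 kb from another annotated TSS. Over all genes, density was higher with 20 to 50 kb (62.9 per Mb) and 50 to 100 kb of territory (64.7) than with 3 to 10 kb (43.7).

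Gene by gene, the lead of first introns was weak. Over the 1350 genes with at least 20 kb of each kind of territory and at least 5 regions in all, 680 were denser in the first intron and 670 in later introns. At least 2 times denser in the first intron were 282 genes (20.9%), and at least 2 times denser in later introns were 318 (23.6%). Summed over the same genes, first introns held 67.4 regions per Mb and later introns 59.5, a ratio of 1.13 (1.10 to 1.16). The median gene had 74.9 regions per Mb in its first intron and 69.4 in later introns.

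Of the 282 genes, 37 had no region in later introns, and of the 318, 95 had none in the first intron. The median territory of the 1350 genes was 58.9 kb in the first intron and 93.0 kb in later introns. At equal density a shorter territory is more often empty, and how far this accounts for these counts was not tested. The genes named are those with most reads among these ties. Acot11, an acyl-CoA thioesterase gene, held 10 regions with 180 reads in 30.2 kb of first intron and none in 21.5 kb of later introns. Lipc, the hepatic lipase gene, held 21 in 124 kb and none in 23.8 kb. Adgrl2 (8 regions), Angpt2 (7), the gene of an angiopoietin ligand, and Pitpnm2 (17) likewise had none in later introns. At the other end Snx29 held none in 29.5 kb of first intron and 40 in 390 kb of later introns. Snd1 held none in 31.5 kb and 42 in 242 kb, and Agbl4 (39), Col23a1 (41) and Ctnnd2 (40) also had all their regions in later introns.

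**Figure D2:**
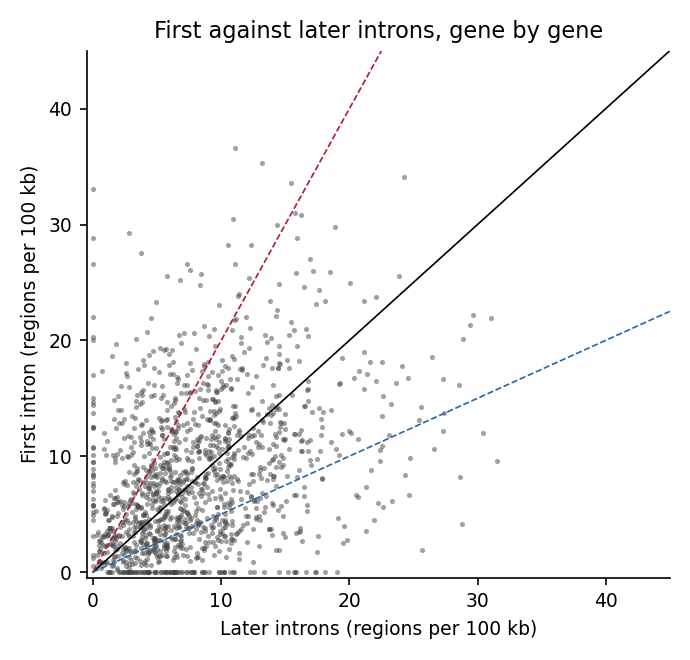
Open regions per 100 kb of first intron (y axis) against later introns (x axis) for 1350 genes, 1 point each; the black line marks equal density and the dashed lines a difference of 2 times. Points lie on both sides of the line in near equal number, 680 above and 670 below.

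The lead of first introns went with the reads at the promoters of the gene. These are the reads of all regions that overlap the zone within 1 kb of any protein-coding TSS of the gene. Genes with more annotated TSSs thus have more such zones. A wide first intron region with its midpoint just beyond 1 kb can count both there and as a first intron region. Among genes with 0 promoter reads, first introns held 24.8 regions per Mb and later introns 27.4, a ratio of 0.908 (0.845 to 0.975). Among genes with 1 to 19 promoter reads both held 36.9, a ratio of 1.0 (0.937 to 1.07). The ratio was 1.18 (1.13 to 1.24) at 20 to 49 reads, 1.21 (1.16 to 1.26) at 50 to 99, 1.24 (1.19 to 1.29) from 100 up to 200 and 1.26 (1.19 to 1.33) at 200 or more. Both kinds of intron were denser in genes with more promoter reads, first introns from 24.8 to 71.4 regions per Mb and later introns from 27.4 to 56.8.

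Genes with more promoter reads also had longer first introns, with a median of 2.36 kb of territory at 0 reads and 8.32 kb at 200 or more. Among genes with 20 to 50 kb of first intron alone, 41.0% (35.2 to 47.0) of those with 0 promoter reads held a region, against 73.1% (68.7 to 77.2) from 100 up to 200 reads and 68.5% (61.9 to 74.5) at 200 or more. Over 3139 genes with at least 20 kb, Spearman's rho between promoter reads and first intron density was 0.26, given as a description over genes of 1 library.

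**Figure D3:**
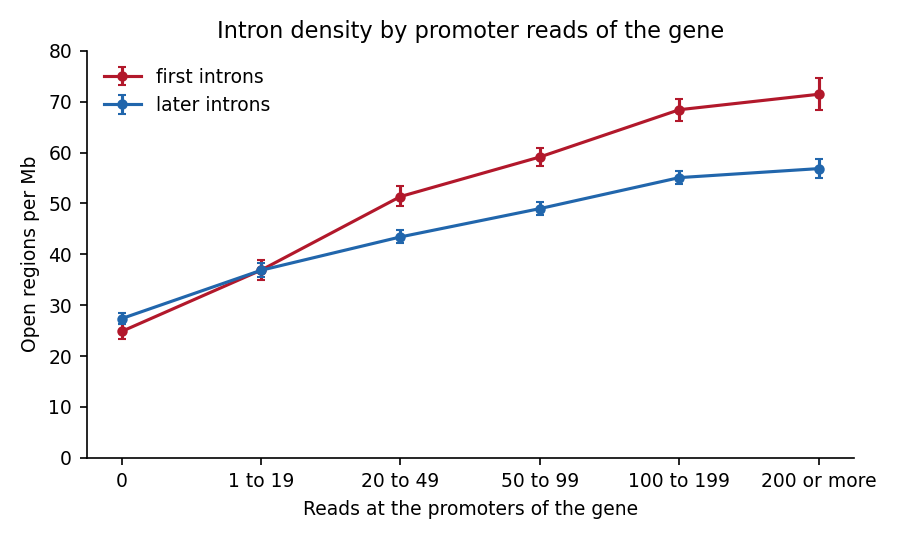
Open regions per Mb (y axis) in first and later introns of genes grouped by the reads at their promoters (x axis); bars are exact 95% Poisson intervals. The lines meet at 1 to 19 reads (36.9 per Mb in both) and part to 71.4 and 56.8 per Mb at 200 reads or more.

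First introns of genes that pattern and build the tooth were among the densest of the 17 gene lists compared. Over all genes, first introns held 52.6 regions per Mb when counted gene by gene. The interval of the ratio to that value lay above 1 for 11 lists, below 1 for the neuronal and skeletal muscle lists, and included 1 for the other 4. All 11 denser lists were also above the 44.9 regions per Mb of all later introns in their own later introns, so the density was not shown to be particular to first introns. A list's count of genes with a region is set beside the 26.0% of all genes, and beside the share that all genes of equal first intron length had.

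The dental mesenchyme factors, homeobox and other transcription factor genes of the jaw and teeth, held 163 regions per Mb (103 to 245), the highest value of the lists. A region was found in 7 of 19 genes (36.8%), where genes of equal length had 17.0%. Prrx2 held 8 regions with 105 reads (85.9 to 127) in 40.4 kb and Alx4 4 with 64 reads in 24.3 kb. Later introns of this list held 66.0 regions per Mb over only 0.106 Mb.

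Among the genes of the skeletal and dentin lineage a region was found in 9 of 17 (52.9%; 35.5% at equal length), at 109 regions per Mb (79.2 to 145). Nfic, a factor needed for root dentin, held 7 regions with 159 reads, Alpl, the alkaline phosphatase of mineralising tissue, 10 with 63, and Runx3 5 with 52. Runx2, a factor required for bone formation, held 6 with 33 reads in 83.2 kb. Its density of 7.21 per 100 kb was close to the 7.14 of its later introns. Twist2, a repressor of bone formation that is not on this list, held 5 regions with 19 reads in 41.9 kb.

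Matrix and adhesion genes were dense too. The collagen and matrix list held 121 regions per Mb (83.7 to 169) in 13 of 19 genes (68.4%; 32.6% at equal length). Vcan, a large matrix proteoglycan gene, held 110 reads in 3 regions (102 of them in a region 0.048 kb from another annotated TSS), Col4a1, of basement membrane collagen, 68 in 10, and Col3a1, of fibrillar collagen, 46 in 2, while Loxl2, a lysyl oxidase gene, had no region in 21.1 kb. The adhesion and cytoskeleton list held 122 per Mb (101 to 146) in 20 of 23 genes (87.0%; 56.8% at equal length), beside 109 in its later introns. Palld held 191 reads in 9 regions and Tns3 184 in 8, while Ptk2 (26.6 kb) and Vcl (37.1 kb), genes of focal adhesions, had none.

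Among signalling pathways the Notch and Hippo list was densest at 139 regions per Mb (118 to 162), in 10 of 17 genes (58.8%; 49.3% at equal length). Its coactivator genes Maml3 (703 reads in 50 regions) and Maml2 (326 in 44) and the Hippo factor gene Tead1 (214 in 23) held most of them, while Maml1 had none in 23.4 kb. The Wnt list held 112 per Mb (87.0 to 142) in 14 of 19 genes (73.7%; 43.8% at equal length). There the receptor genes Ror2 (185 reads in 26 regions), Lgr4 (160 in 10) and Lrp5 (86 in 6) led.

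In the hedgehog list, 6 of 8 genes had a region (75.0%; 62.9% at equal length), at 95 per Mb (66.2 to 132). The list's ratio to all genes, 1.81 (1.26 to 2.51), fell below that interval to 1.23 among regions of at least 10 reads. Gli3, which acts mainly as the repressor of the pathway, held 173 reads in 17 regions and Gli2, its main activator, 159 in 6. The coreceptor gene Boc held 35 in 7, while its relative Cdon had none in 28.5 kb. Gli3 had 11.5 regions per 100 kb of first intron and 9.22 in later introns, while Gli2 had 11.9 and 16.1. The later introns of the list held 105 per Mb.

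The BMP and TGF-beta list was nearer to all genes, at 72.0 per Mb (56.0 to 91.1), and was denser in later introns (107). A region was found in 20 of 24 genes (83.3%; 52.8% at equal length). Smad3, a signal transducer, held 154 reads in 17 regions, and the ligand genes Bmp7 and Bmp4 held 140 in 8 and 117 in 2, while the receptor gene Bmpr2 had none in 45.4 kb. The Bmp4 region with most reads (112) lay 0.037 kb from the TSS of another annotated transcript.

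In the IGF list 9 of 14 genes had a region (64.3%; 42.1% at equal length), at 78.6 per Mb (53.1 to 112). Igfbp7 held 168 reads in 8, the adaptor gene Irs1 137 in 4 and the receptor gene Igf1r 37 in 5, while Igfbp2 had none in 22.8 kb. Igf1r held 31 regions in 219 kb of later introns, or 14.2 per 100 kb, against 5 in 50 kb of its first intron. In the FGF list 9 of 16 had one (56.3%; 46.1% at equal length), at 94.2 per Mb (68.2 to 127). Spred2, a feedback inhibitor gene, held 119 reads in 16 and Fgfr1 57 in 8, while the ligand gene Fgf7 had none in 52.2 kb. Fgfr2 counted 65 reads in 4, but its region with most reads lies in the first intron of Ctbp2 and is ascribed to it through a transcript that begins there. The same transcript gives Fgfr2 most of the later intron territory of the list.

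The family of nuclear factors and repressors held 62.7 per Mb (52.0 to 75.1) in 15 of 24 genes (62.5%; 48.1% at equal length), led by Foxp1 and Tcf4 (167 reads each) and Zfhx3 (165). Housekeeping genes held 54.6 (6.62 to 197), from 2 of 13 genes (15.4%; 8.38% at equal length), Ywhaz (82 reads, 0.238 kb from another annotated TSS) and Polr2a (7), while Actb had none.

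Lists of other cell types were included as a check. The skeletal muscle list held 17.0 per Mb (4.62 to 43.4), from 3 of 12 genes (16.8% at equal length): Myf5 (18 reads), Actn2 (8) and Dmd (3 reads in 191 kb). The neuronal list held 31.4 per Mb (26.5 to 36.8), although 17 of 18 genes had a region (94.4%; 86.9% at equal length), and its members' median first intron territory was 238 kb, against 4.50 kb over all genes. Rbfox1 (592 reads), Ptprd (204) and Dlg2 (102) led it, and with 1 transcript a gene its ratio to all genes was 0.352 in place of 0.597.

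The leukocyte list held 70.3 (22.8 to 164), from 4 of 12 genes (33.3%; 19% at equal length), with Csf1r (12 reads), Mrc1 (6) and Fcer1g (5) highest. It had none left among regions of at least 10 reads. The endothelial list held 83.8 (56.1 to 120) in 8 of 12 genes (66.7%; 35.5% at equal length), led by Esam (115 reads, the larger region 0.151 kb from another annotated TSS), Erg (76) and Tek (26). The ratio of the endothelial list to all genes was 1.595 (1.07 to 2.29), and 1.15 among regions of at least 10 reads. The dental epithelium list held 78.9 (43.1 to 132) in 4 of 8 genes (25.4% at equal length), led by Cldn10 (155), Trp63 (40) and Krt14 (17, at 0.469 kb from another annotated TSS), and its ratio to all genes of 1.5 became 2.84 with 1 transcript a gene.

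**Figure D4:**
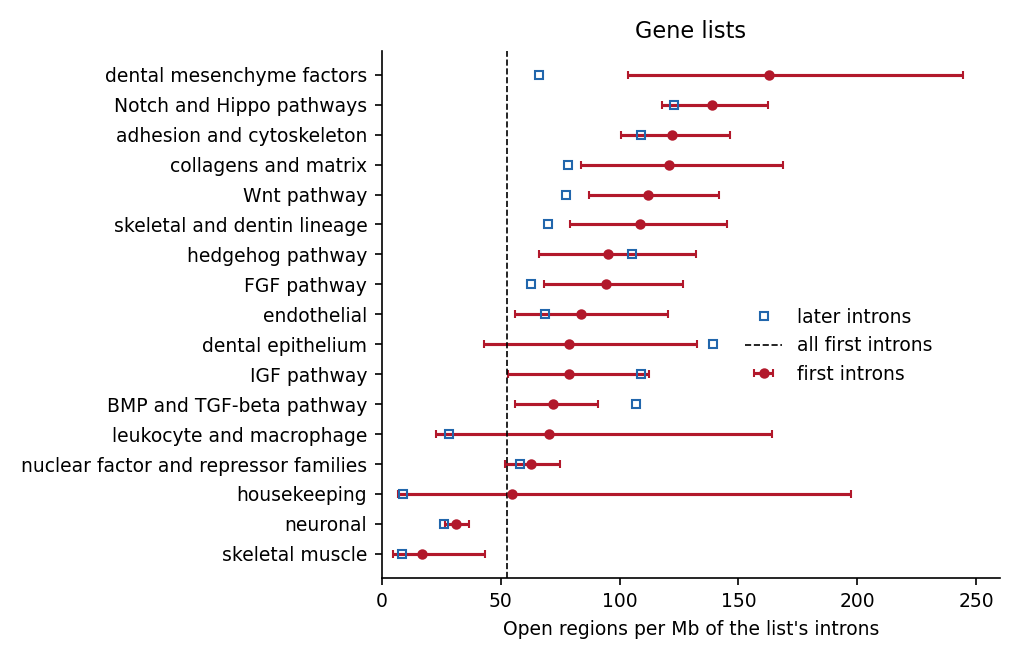
Open regions per Mb (x axis) of the first introns of 17 gene lists (filled points, with exact 95% Poisson intervals) and of their later introns (open squares, without intervals); the dashed line is the 52.6 per Mb of all genes' first introns. Dental mesenchyme factors lie highest at 163 and the skeletal muscle list lowest at 17.0.

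The CTCF motif was rarer in first intron regions than in later intron regions. It was found in the central 200 bases of 244 first intron regions, 1.65% (1.45 to 1.86), and of 955 later intron regions, 3.51% (3.29 to 3.74). In flanking windows 2 kb away the shares were 0.0811% and 0.121%. Among regions of at least 10 reads they were 2.76% and 6.13%. Regions with the motif had a median of 11 reads in both sets, against 6 in first intron regions without it.

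The share of regions with the motif was higher at each step from the start of the gene. Matches per Mb of sequence, given below, did not follow that order. It was 0.540% (0.452 to 0.640) in promoter regions, 1.65% in intron 1, 2.34% (2.0 to 2.73) in intron 2, 2.98% (2.47 to 3.56) in intron 3, 3.84% (3.42 to 4.30) in introns 4 to 7 and 4.38% (3.96 to 4.83) in introns from 8 on. Intergenic regions had 3.50% (3.33 to 3.68). The intervals of introns 1 and 2 did not overlap, while those of introns 2 and 3 did, as did those of introns 4 to 7 with introns 3 and 8 on.

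**Figure D5:**
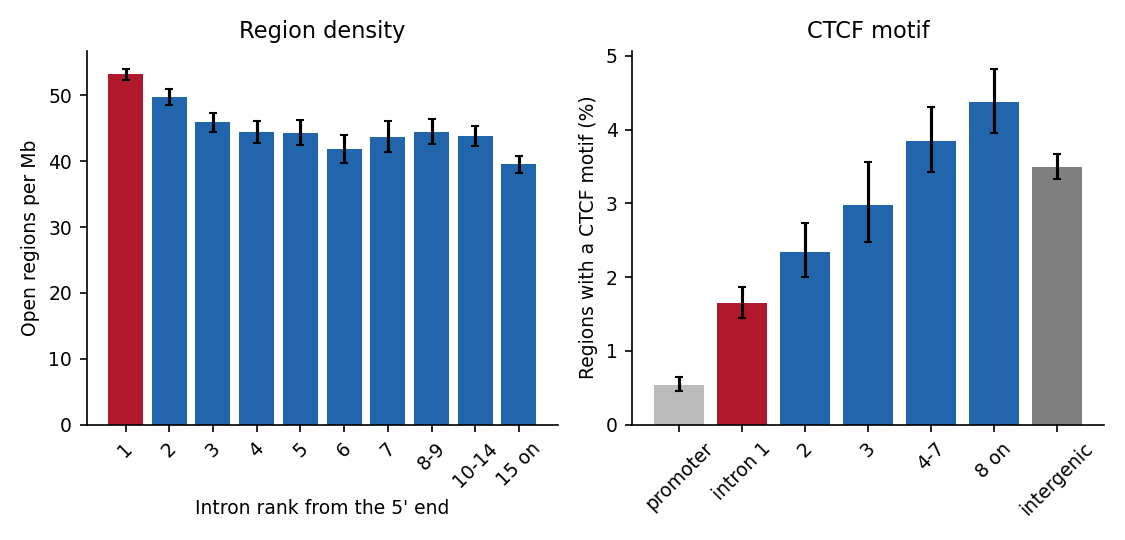
Open regions per Mb by intron rank from the 5′ end (left), and the share of regions with a CTCF motif in percent by class of region (right), with exact 95% intervals as bars. Density falls from 53.2 per Mb in intron 1 to 39.5 from intron 15 on, while the CTCF share goes from 1.65% in intron 1 to 4.38% from intron 8 on.

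Distance to a TSS did not remove the difference up to 100 kb. From 5 to 10 kb the shares were 1.82% (1.32 to 2.44) in first introns, 6.20% (5.14 to 7.41) in later introns and 5.38% in intergenic sequence. From 20 to 50 kb they were 1.21% (0.883 to 1.61), 3.98% (3.55 to 4.44) and 4.31%. Beyond 100 kb the order was the other way, 2.56% (1.68 to 3.73) in first introns and 1.75% (1.45 to 2.08) in later introns, with overlapping intervals.

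In terms of density, first introns held 0.876 CTCF motif regions per Mb and later introns 1.57, a ratio of 0.556 (0.481 to 0.641). Without these regions the density ratio of first to later introns was 1.21 (1.18 to 1.23). The motif itself was also rarer in first intron sequence, at 4.58 matches per Mb against 5.94. Of those matches, 25.3% (22.9 to 27.8) lay in an open region in first introns and 34.9% (33.3 to 36.5) in later introns. First introns thus had both fewer matches and a lower share of them open.

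For 4 of the 24 motifs the interval of the first over later ratio lay above 1: SP and KLF, CRE, ETS and PU.1. The SP and KLF core GGGGCGG was found in 3.51% (3.22 to 3.82) of first intron regions, in 2.27% (2.09 to 2.45) of later intron regions and in 1.29% of first intron flanks. That order did not hold at equal distance from a TSS. The share was lower in first than in later introns from 1 to 2 kb (10.4% and 12.4%), 2 to 5 kb (5.01% and 5.21%), 5 to 10 kb (3.25% and 3.78%) and 20 to 50 kb (2.12% and 2.25%), and higher in the other 3 distance classes. The cyclic AMP response element TGACGTCA was found in 36 first intron regions, 0.243% (0.170 to 0.336), against 0.114% (0.0774 to 0.162) in later introns. The ETS site CCGGAAGT was in 0.290% against 0.154%, a ratio of 1.88 (1.20 to 2.95), and the PU.1 site AGAGGAAGT in 0.776% against 0.577%, a ratio of 1.34 (1.05 to 1.72).

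Several, but not all, of the motifs of factors with known roles in dental mesenchyme were above their flanks in both kinds of intron. The homeodomain core TAATTA was in 10.8% (10.3 to 11.3) of first intron regions, in 11.8% (11.4 to 12.2) of later intron regions and in 5.42% of first intron flanks. Its first over later ratio was 0.912 (0.858 to 0.968), and its share in first intron regions of at least 10 reads was 14.7%. The shares in first and later introns were 7.32% and 7.43% for the RUNX core TGTGGTT, 4.63% and 4.50% for the TEAD core ACATTCC, and 5.48% and 5.19% for the AP-1 site TGAGTCA. The E-box CAGCTG was in 15.7% and 15%, and the FOX core TGTTTAC in 5.02% and 5.32%. The flanks of first intron regions had 4.95%, 2.68%, 3.64%, 9.09% and 2.80% of these motifs in turn. Other motifs were only slightly above their flanks in first introns. The Twist-type E-box CAGATG was in 17.7% of first intron regions against 15.5% of flanks. The TCF and LEF core CTTTGAA was in 5.11% against 4.55%, and the GLI site GACCACCCA in 0.196% against 0.176%. A few were not above their flanks: the PITX core TAATCC was in 5.62% of first intron regions against 7.56% of flanks. The SOX core ACAATGG was in 2.81% against 2.87%, and the GATA core AGATAAG in 1.96% against 2.61%.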

How the data were processed

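ATAC-seq was measured in 1 library of incisor dental mesenchyme, run on 4 lanes that share 1 value column. Per the labels' protocols, BWA-MEM placed the reads on mm10 and MACS2 called peaks. STAR 2.6.1d and Partek are further tools in the submitters' processing notes, which state no roles. Read shifting, removal of duplicate or mitochondrial reads, and the libraries used for calling are not given in the sources used here. Duplicates, if kept, would raise single regions, and regions called on other libraries could have 0 reads here.

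The authors deposited CPM values with 1 read added to each region. Values were whole multiples of 0.0484 CPM, the value of 1 read, in 99.9% of regions (within 0.01 read, with 84 exceptions). Dividing by that value and taking away 1 gave 2297894 reads in all. With 1 library no count test could be run. A further value column (1 in all) matches no sample here and was not used. A shorter table of the same library, for some chromosomes, was not used either.

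Regions were placed by midpoint on the GENCODE vM21 basic annotation. Territory is the union of introns less all annotated exons, zones of 1 kb around protein-coding TSSs and unknown bases. Densities have exact Poisson intervals, shares exact Clopper-Pearson intervals and density ratios exact conditional intervals, at 95%; the ratio at equal distance has a normal approximation on the log scale. PCR reads are not independent molecules, so intervals cover counting error only. The code was tested on simulated data, where 18 of 18 intervals covered the true ratio. The simulated regions were placed independently, at an even density within each kind of intron. Coverage for clustered regions, or for a ratio that changes with distance, was not tested. Motifs were searched on both strands of the central 200 bases, and flanks were windows of the same length 2 kb away. Alignment to the mitochondrial genome used blastn 2.17.0 (E-value limit 1e-05). Python 3.11.15, numpy 2.4.6, pandas 2.3.3, scipy 1.17.1, pysam 0.24.0 and matplotlib 3.10.9 were used.

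The regions, the 17 gene lists and the 24 motifs were chosen with earlier results of these data known. By rule, the text names the 10 regions with most reads, the 10 genes with most regions, the 5 densest genes, the 3 leading members of each list and list members with at least 20 kb and no region, the 5 genes at each end of the first to later ratio, and Runx2, Gli3, Igf1r and Twist2. A few genes that this rule or the marker lists name are not reported here. Dcbld1, Arhgap31 and the CTCF examples other than Pde10a were added after their values were seen. Alternatives changed the read minimum, merging of regions, TSS zone, transcripts, exons and chromosomes.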

Additional observations from a re-analysis of the deposited data

How the results depend on the processing

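The density lead of first introns kept its direction under every alternative run (1.19 by regions, 1.19 by reads and 1.21 at equal TSS distance as reported). With 1 transcript a gene the ratios were 1.23 by regions, 1.25 by reads and 1.26 at equal distance. With every annotated TSS zone removed, chosen after seeing the data, they were 1.16 by regions, 1.12 by reads and 1.20 at equal distance. Among regions of at least 10 reads the ratio at equal distance was 1.14. By reads it was 1.18 with abutting regions merged, 1.16 with a TSS zone of 5 kb, 1.21 for first introns that are a later intron of no transcript, and 1.18 without Gm genes and readthrough transcripts, also chosen after seeing the data. Regions of at least 10 reads were held by 2525 genes and left 126 genes at least 2 times denser in the first intron and 149 in later introns, of 558. Median reads were 7 with regions merged or limited to 200 to 400 bases. The leukocyte list went from a ratio of 1.34 to 0 among regions of at least 10 reads. Of the other values, for single motifs and lists, 97 stayed within the interval of the reported value, which is wide for rare motifs and small lists (the CRE ratio of 2.13 was 3.01 among regions of at least 10 reads, and the housekeeping ratio of 1.04 was 0.534 with 1 transcript a gene), and 10 moved beyond it. The CTCF share of first over later intron regions, 0.469, was 0.476 with every TSS zone removed. Where a value moved, the cause was not tested.

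No paired analysis was possible because there is 1 group and 1 value column. Leaving out each lane was not run, since the files hold no column for each lane. A median of 6 reads limits what can be said of single regions, and a gene without a listed region is not shown to be closed there.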
